A study of Mus musculus with 2 samples.

Results

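6 long noncoding RNAs of mouse pancreatic islet cells, Malat1, Neat1, Snhg11, Miat, Kcnq1ot1 and Snhg6, were described by cell type and diet. They were taken by symbol from a gene table of 27998 genes, and all 6 are listed there. The cells came from wild-type C57BL/6J mice, a common inbred strain, that received regular chow (4 mice) or a 60% high-fat diet (HFD, 5 mice) for 6 weeks after weaning. Islets of all mice were picked by hand and cultured overnight before dissociation, so every value refers to cells after a night in culture. The mice of a diet went into 1 droplet library, and nothing ties a cell to a mouse. Library and diet are therefore the same split, and no test of diet was possible: each difference below is one between 2 libraries, with 95% intervals that cover counting error only. No allele or agent other than the diet is given for either group.

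The chow library held 6509 cell barcodes with 89292222 unique molecular identifiers (UMIs, one per captured RNA molecule), and the HFD library 4539 barcodes with 68544729 UMIs. Median depth was 12414 and 13911 UMIs per barcode, and 6109 and 4200 cells were kept. Types were set by hormone share: beta cells have at least 20% insulin UMIs (Ins1 and Ins2), alpha cells 5% glucagon (Gcg), delta cells 1% somatostatin (Sst) and PP cells 15% pancreatic polypeptide (Ppy), in that order, and endothelial cells at least 10 UMIs of Plvap, Kdr and Flt1. Macrophage-like cells were added from the remainder by 10 UMIs of C1qa, C1qb, C1qc, Cd68 and Lyz2. There were 4372 chow and 2968 HFD beta cells, 740 and 374 alpha cells, 447 and 370 delta cells, 199 and 154 PP cells, 165 and 121 endothelial cells, and 54 and 69 macrophage-like cells. The markers of each type were detected in it, except Lepr, one of 5 delta markers, which was at 0 in delta cells of both libraries. Delta cells also carried Ppy: 356 of 447 chow and 292 of 370 HFD delta cells had at least 1% Ppy UMIs. The libraries shared 45 barcodes, 41 of them among the kept cells.

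Long noncoding RNAs act as RNA, without being translated. Malat1 lies in nuclear speckles, the stores of splicing factors, and Neat1 builds the paraspeckles, nuclear bodies that hold back certain proteins and RNAs. The genes of both lie side by side on chromosome 19. Kcnq1ot1 is transcribed from the paternal allele, antisense to the potassium channel gene Kcnq1, and silences an imprinted cluster that also holds the growth inhibitor gene Cdkn1c. Miat is a nuclear RNA that binds splicing factors and is known from neurons and the heart. Snhg6 and Snhg11 are host genes of small nucleolar RNAs, which sit in their introns and guide the modification of other RNAs. Snhg11 is best known from neurons.

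How these RNAs end bears on what a 3' library can capture, because the chemistry primes on runs of A. The sequences below come from GENCODE vM21 transcripts (GRCm38), with coordinates of that build. The build behind the counts is not given in the sources used here. Malat1 (ENSMUSG00000092341) is a single exon of 6983 bases at chr19:5795690-5802672, minus strand, and Neat1 (ENSMUSG00000092274) starts 22035 bases beyond it at chr19:5824708-5845478, also on the minus strand. The long Neat1 transcript of 20771 bases ends in a stretch of 11 bases that occurs 1 time in Malat1, 292 bases before the annotated Malat1 end. The 60 bases up to and including this stretch, in capitals, show the A-rich ends that both RNAs share in place of an ordinary poly(A) tail; they lie at chr19:5795982-5796041 in Malat1 and chr19:5824708-5824767 in Neat1.
Malat1: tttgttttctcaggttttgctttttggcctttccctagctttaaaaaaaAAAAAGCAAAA
Neat1 long: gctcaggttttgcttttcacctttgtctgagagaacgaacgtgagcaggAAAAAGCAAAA
The short Neat1 transcript of 3004 bases has the common polyadenylation signal AATAAA (capitals) 20 bases before its end, so a 3' library can prime on its tail. The stretch shown lies at chr19:5842307-5842366. A count for Neat1 does not tell the short from the long form.
Neat1 short: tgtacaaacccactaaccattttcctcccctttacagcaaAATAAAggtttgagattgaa

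Kcnq1ot1 (ENSMUSG00000101609) is unspliced and 93092 bases long, at chr7:143203458-143296549 on the minus strand. It holds 8 runs of at least 12 A, and the longest, 41 A in capitals, lies 23487 bases before its end. The 81 bases shown, with the run inside, lie at chr7:143226925-143227005. Priming within the RNA can therefore add to its counts, and how much was not tested.
Kcnq1ot1: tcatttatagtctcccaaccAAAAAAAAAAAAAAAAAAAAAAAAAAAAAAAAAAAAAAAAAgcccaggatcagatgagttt
Snhg6 (ENSMUSG00000098234, chr1:9941959-9944118, minus strand) has a spliced form of 473 bases in 4 exons. Its first 7 bases (capitals, chr1:9944089-9944118 for the stretch shown) are a C followed by pyrimidines only, the start that messenger RNAs of the ribosome share. Near its end it has AATAAA (capitals, chr1:9941959-9942018 for the stretch shown).
Snhg6 start: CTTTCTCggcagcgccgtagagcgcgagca
Snhg6 end: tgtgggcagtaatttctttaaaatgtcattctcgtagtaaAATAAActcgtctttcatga
Snhg11 (ENSMUSG00000044349) spans chr2:158375638-158386145 on the plus strand with 5 exons in its longest form of 5864 bases, and GENCODE lists it as protein coding although RefSeq does not. Miat (ENSMUSG00000097767) spans chr5:112213228-112229395 on the minus strand.

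Levels are given as counts per 1000000 UMIs of a type (CPM), chow before HFD, and are compared between types for one RNA, not between RNAs. Malat1 was found in at least 98.6% of the cells of every type. Its level was 6679 (interval 6659 to 6698) and 12089 CPM (12059 to 12120) in beta cells. In macrophage-like cells it was 11830 and 17141 CPM, in PP cells 18421 and 28961 CPM, in alpha cells 18628 and 28290 CPM, in delta cells 22402 and 31471 CPM, and in endothelial cells 24558 and 30903 CPM. Beta cells were thus lowest in both libraries, and alpha cells had 2.79 (2.77 to 2.81) and 2.34 times (2.33 to 2.35) the beta level. Macrophage-like cells were next in both libraries. Endothelial and delta cells changed places between the libraries, as did alpha and PP cells, whose intervals overlapped in chow. Hormone RNA is part of this total: it made up 60.7% and 60.2% of UMIs in beta cells against 2.67% and 2.97% in endothelial cells. With hormone UMIs left out of the totals, the lowest levels were in macrophage-like cells (12155 and 17505 CPM), beta cells had 17016 and 30376 CPM and PP cells the highest, 43314 and 63628 CPM.

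**Figure D1:**
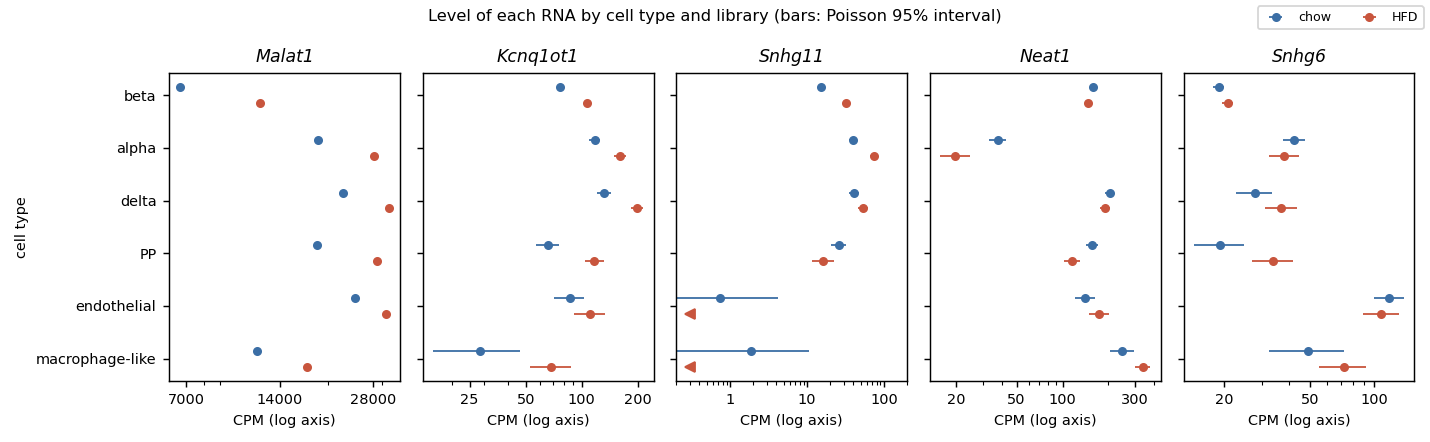
Level of 5 long noncoding RNAs in 6 islet cell types, in CPM on a log axis with its own range for each RNA; blue is the chow library, red the HFD library, bars are Poisson 95% intervals and an arrowhead marks a count of 0. Malat1 is lowest in beta cells, Neat1 in alpha cells, and Snhg11 has 0 or 1 counts in endothelial and macrophage-like cells.

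Neat1 was low in alpha cells alone among the 6 types. Alpha cells had 37.6 CPM (33.0 to 42.7) and 19.9 CPM (15.8 to 24.6). PP cells had 156 and 115 CPM, beta cells 158 and 148 CPM, endothelial cells 141 and 174 CPM, delta cells 204 and 189 CPM, and macrophage-like cells 246 (206 to 292) and 336 CPM (299 to 377). Beta cells thus had 4.19 (3.69 to 4.79) and 7.45 times (6.00 to 9.36) the alpha level, and delta cells 5.43 and 9.52 times. Alpha cells stayed lowest without the hormone UMIs (52.9 and 28.8 CPM), whereas the highest type became beta cells, with 402 and 371 CPM. With every cell thinned to 4000 UMIs, a Neat1 UMI was found in 11.7% of chow alpha cells (9.47 to 14.3%) and 5.35% of HFD alpha cells (3.30 to 8.14%), against 44.5% and 41.8% of beta cells. Without thinning the shares were 19.2% and 14.97% of alpha cells and 79.3% and 76.1% of beta cells, at median depths of 8368 and 10895 UMIs in alpha and 14653 and 16759 UMIs in beta cells. Free RNA from broken cells can add to such low values. Insulin, which alpha cells do not make, stood at 4.61% and 3.49% of its beta level in alpha cells, and the same share of beta RNA would give 7.26 and 5.16 CPM of Neat1.

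The alpha cells that had a Neat1 UMI differed from the others in the RNA of neighbouring types. In the chow library 142 alpha cells had one and 598 had none. The former carried 28222 CPM of Ppy against 13174 CPM, 3931 CPM of Sst against 435 CPM, and 139 CPM of Cd74, a gene of antigen-presenting cells, against 2.85 CPM. In the HFD library the 56 cells with a Neat1 UMI carried 29058 CPM of Ppy against 16669 CPM and 3370 CPM of Sst against 803 CPM, while Cd74 was at 7.20 and 8.89 CPM. The 8 macrophage markers summed to 182 CPM in chow alpha cells with a Neat1 UMI and 36.4 CPM without (Adgre1 was at 0 in chow alpha cells). In HFD alpha cells they summed to 47.5 and 36.1 CPM. Cd74 is among these 8 markers, and its 139 CPM made up most of the 182 CPM. The chow sums are therefore no separate sign of macrophage RNA beside Cd74. The gene Ccl5 was also higher in chow alpha cells with a Neat1 UMI than in those without, but not in HFD alpha cells. Deeper cells show more UMIs of any gene, and those with a Neat1 UMI had medians of 9213 against 8138 UMIs in chow and 12438 against 10721 UMIs in HFD. The part of mixed cells in the alpha level was not tested beyond this: in alpha cells with under 1% Ppy, Neat1 was at 32.0 CPM (27.2 to 37.5) and 17.3 CPM (12.9 to 22.6), and at 56.4 and 26.9 CPM in alpha cells with more.

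Snhg11 was detected mainly in the endocrine cells. Alpha cells had 39.97 (35.2 to 45.2) and 73.9 CPM (65.9 to 82.6), delta cells 40.8 and 53.6 CPM, beta cells 15.2 and 32.1 CPM, and PP cells 26.0 and 16.2 CPM. This order changed without the hormone UMIs. Alpha cells then had 56.2 and 107 CPM, delta cells 61.0 and 76.0 CPM, beta cells 38.7 and 80.6 CPM, and PP cells 61.0 and 35.7 CPM. Endothelial cells had 1 count in chow and 0 in HFD, as had macrophage-like cells. In the HFD library the level in alpha cells was at least 25.4 times that of endothelial cells and at least 21.9 times that of macrophage-like cells, and in beta cells at least 11.02 and 9.51 times, taking 3 counts over the group as the limit that a count of 0 allows. The single count in chow endothelial cells gives a ratio of 53.4 for alpha cells with a wide interval (9.50 to 2117). Of the 121 HFD endothelial cells none had an Snhg11 UMI, which allows a share of up to 2.48%, and of the 69 HFD macrophage-like cells none had one, which allows up to 4.35%. These limits are for cells with a UMI, at median depths of 6561 and 12401 UMIs, not for cells that express the gene. Insulin in HFD endothelial cells stood at 4.64% of its beta level, which would bring 1.49 CPM of Snhg11 with beta RNA, under the 2.91 CPM that 3 counts stand for.

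Within the endocrine types Snhg11 was concentrated in a minority of cells. In chow beta cells 3873 of 4372 had none, 289 had 1 UMI and 42 (0.961%) had 5 or more, and these 42 held 28.0% of the counts. In HFD beta cells 97 cells (3.27%) had 5 or more and held 55.1% of the counts. In alpha cells 14 (1.89%) and 25 cells (6.68%) had 5 or more and held 34.9% and 61.5%. Over thinned cells the variance of Snhg11 counts was 1.84 (chow beta) to 3.66 times (HFD beta) the mean in the 4 endocrine types. For Snhg6 in the same types the ratio was 0.939 to 1.04, close to the value of 1 that counting alone gives. Alpha cells with an Snhg11 UMI carried less Ppy: 10620 against 17473 CPM in chow and 4666 against 22643 CPM in HFD. Their Sst, a sign of delta RNA, was at 1269 against 1197 CPM in chow and higher, at 2108 against 985 CPM, in HFD. HFD beta cells with an Snhg11 UMI also carried more Sst, 1061 against 268 CPM, which chow beta cells did not (312 against 343 CPM). The part of mixed cells in the Snhg11 level was not tested. Ppy was lower also in delta cells with an Snhg11 UMI in the HFD library (45379 against 70942 CPM) and not in the chow library (70103 against 58715 CPM). In alpha cells with at least 1% Ppy, Snhg11 was at 31.3 and 35.0 CPM, and in those with less at 42.5 and 88.1 CPM (77.9 to 99.2).

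Kcnq1ot1 was detected in all 6 types. Delta cells had 132 (121 to 144) and 199 CPM (185 to 214), alpha cells 117 and 160 CPM, endothelial cells 86.1 and 111 CPM, beta cells 76.3 (74.2 to 78.4) and 107 CPM (104 to 110), PP cells 65.9 and 117 CPM, and macrophage-like cells 28.4 (15.9 to 46.9) and 68.6 CPM (52.5 to 88.1). Delta cells had 4.66 (2.80 to 8.38) and 2.90 times (2.23 to 3.83) the macrophage-like level. Delta cells were above alpha cells in both libraries, with intervals that overlapped in chow (109 to 126 CPM in alpha cells) and not in HFD (148 to 173 CPM). The intervals of endothelial, beta and PP cells overlapped within each library. Without the hormone UMIs beta cells had 194 and 269 CPM, close to delta cells at 198 and 282 CPM. Alpha cells then had 165 and 232 CPM, PP cells 155 and 257 CPM, and macrophage-like cells stayed lowest (29.2 and 70.0 CPM). Whether the counting used strand is not stated in those sources. If it did not, reads of Kcnq1 introns could not be told apart from Kcnq1ot1.

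Snhg6 was highest in endothelial cells, with 118 (99.9 to 137) and 108 CPM (88.7 to 130). Macrophage-like cells had 49.2 and 72.0 CPM, alpha cells 42.3 and 38.0 CPM, delta cells 27.7 and 36.9 CPM, PP cells 19.1 and 33.7 CPM, and beta cells 18.8 (17.8 to 19.9) and 20.7 CPM (19.5 to 22.0). Endothelial cells had 6.25 (5.26 to 7.38) and 5.20 times (4.24 to 6.33) the beta level. Without the hormone UMIs they were still highest (121 and 111 CPM), while beta cells, at 47.9 and 52.1 CPM, came close to delta cells at 41.3 and 52.3 CPM. In thinned cells a Snhg6 UMI was found in 38.9% and 33.9% of endothelial cells and 7.52% and 7.92% of beta cells. The 16 chow and 31 HFD mesenchymal-like cells, too few to compare, had 186 and 206 CPM.

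Miat was at the limit of detection. Over all kept cells it had 3 counts in 3 of 6109 chow cells and 7 counts in 6 of 4200 HFD cells. Beta cells had 1 and 3 counts, alpha cells 1 and 4, delta cells 1 and 0, and the other 3 types 0. For the PP cells a count of 0 allows up to 1.02 and 1.25 CPM, and for endothelial cells up to 2.25 and 2.91 CPM. In the HFD library its level was 0.957 CPM (0.261 to 2.45) in alpha and 0.060 CPM (0.012 to 0.176) in beta cells, intervals that do not overlap but rest on 4 and 3 counts. In the chow library, with 1 count in each of these types, no such difference was detectable.

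The HFD and chow libraries were compared within each type. The log2 ratio of HFD over chow CPM was taken relative to the median ratio of all genes with at least 50 counts, which was 0.19 in beta cells and between -0.01 and 0.08 in the other types. A relative log2 ratio of 0.5 or more either way was called past the fold. This is a size, not a test. In beta cells Malat1 was higher in the HFD library by 0.66 (interval 0.66 to 0.67) and Snhg11 by 0.89 (0.77 to 1.00). Kcnq1ot1 differed by 0.29 (0.24 to 0.35), Snhg6 by -0.05 (-0.17 to 0.07) and Neat1 by -0.29 (-0.33 to -0.24). Of the 5 measured RNAs 2 were past the fold, both higher in HFD, where 6.11% of 12252 genes were that high, 12.1% were that low and 18.2% were past it either way. Malat1 stood above 96.8% and Snhg11 above 98.6% of these genes. Without subtraction of the median the values were 0.86 for Malat1 and 0.49 for Kcnq1ot1, and Snhg6 had the opposite sign, 0.14.

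**Figure D2:**
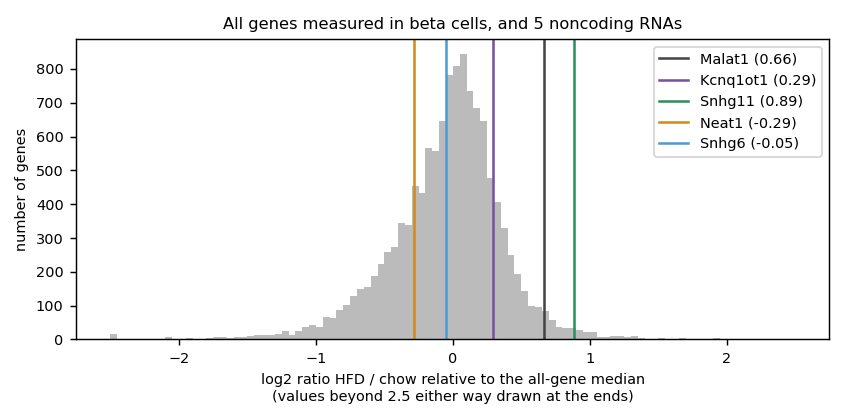
Relative log2 ratio of HFD over chow in beta cells: the grey histogram counts all measured genes and coloured lines mark 5 long noncoding RNAs. Malat1 and Snhg11 lie in the right tail, beyond 0.5, and Neat1 left of the centre at -0.29.

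In alpha cells Malat1 was higher in the HFD library by 0.62 (0.60 to 0.63) and Snhg11 by 0.90 (0.65 to 1.14), and Neat1 was lower, at -0.90 (-1.29 to -0.54). These 3 of 5 were past the fold, beside 14.1% of 8919 genes either way (6.68% higher, 7.38% lower). Kcnq1ot1 differed by 0.46 (0.31 to 0.61) and Snhg6 by -0.14 (-0.44 to 0.15). In delta cells Kcnq1ot1 alone reached the fold, at 0.50 (0.34 to 0.67), where 7.4% of 8616 genes were that high, 4.47% that low and 11.9% either way. It fell short of the fold in 6 of 22 alternatives, with a lowest value of 0.45. Malat1 differed by 0.41, Snhg6 by 0.33, Snhg11 by 0.31 and Neat1 by -0.19. In PP cells all 5 were past the fold, beside 18.9% of 5706 genes (11.6% higher, 7.36% lower): Kcnq1ot1 at 0.74 (0.48 to 1.02), Snhg6 at 0.73 (0.23 to 1.25), Malat1 at 0.57 (0.55 to 0.59), Neat1 at -0.52 (-0.74 to -0.30) and Snhg11 at -0.75 (-1.36 to -0.18). The PP value of Snhg11 rests on 76 chow and 39 HFD counts, of which the 10 richest cells held 67.1% and 84.6%, and it was -1.75 without these 10 cells of each library, -0.45 with no doublet removal and -0.39 in the deeper cells.

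In endothelial cells 0 of the 4 measured RNAs were past the fold, where 16.3% of 5655 genes were (9.66% higher, 6.61% lower): Malat1 differed by 0.31 (0.29 to 0.33), Kcnq1ot1 by 0.34 (-0.05 to 0.73), Neat1 by 0.28 (-0.02 to 0.59) and Snhg6 by -0.14 (-0.51 to 0.21). In macrophage-like cells 1 of 4 was, Kcnq1ot1, at 1.15 (0.36 to 2.11), and 21.9% of 2814 genes were (13% higher, 8.96% lower). That value rests on 15 chow and 61 HFD counts, of which the 10 richest cells held 86.7% and 62.3%. It was 2.38 without these 10 cells of each library, which left only 4.76 and 32.1 CPM. In the cells at or over the median mitochondrial share it was 0.47. Over all macrophage-like cells Malat1 differed by 0.45, Snhg6 by 0.45 (-0.21 to 1.18) and Neat1 by 0.36 (0.06 to 0.67). Malat1 and Kcnq1ot1 thus had values above 0 in 6 of 6 types, though the endothelial interval of Kcnq1ot1 reached below 0. The 6 types share the same 2 libraries, and how many of all genes were above 0 in all 6 is not given here. Neat1 was lower in the HFD library in the 4 endocrine types and had positive values in the other 2. This order had exceptions: Neat1 was at 0.39 in delta cells with under 1% Ppy and in endothelial cells at -0.11 under the median depth and at -0.09 under the median mitochondrial share. Fewer of one kind of cell within a type and less RNA per cell cannot be told apart in these sums.

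**Figure D3:**
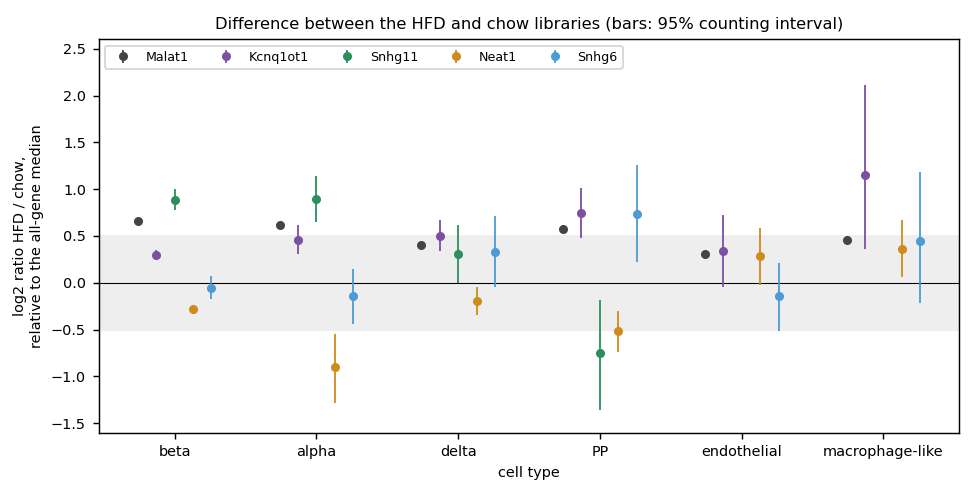
Relative log2 ratio of HFD over chow for 5 long noncoding RNAs in 6 cell types; points are values from summed counts, bars 95% counting intervals, and the grey band spans -0.5 to 0.5. The points of Malat1 and Kcnq1ot1 are above 0 in all 6 types, with the endothelial bar of Kcnq1ot1 crossing 0. Snhg11 is at 0.90 in alpha and -0.75 in PP cells.

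The higher Malat1 level of the HFD library was spread over the cells. With each cell thinned to 4000 UMIs, the median beta cell had 24 Malat1 UMIs in chow (10th to 90th percentile 9 to 56) and 45 in HFD (19 to 96). The medians were 68 and 107 in alpha cells, 87 and 119.5 in delta cells, 71 and 116 in PP cells, 87 and 121 in endothelial cells, and 43 and 64 in macrophage-like cells. The distributions of the libraries overlapped in each type. The variance was 16.7 to 74.5 times the mean, so Malat1 varied between cells of a type far more than counting alone gives.

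**Figure D4:**
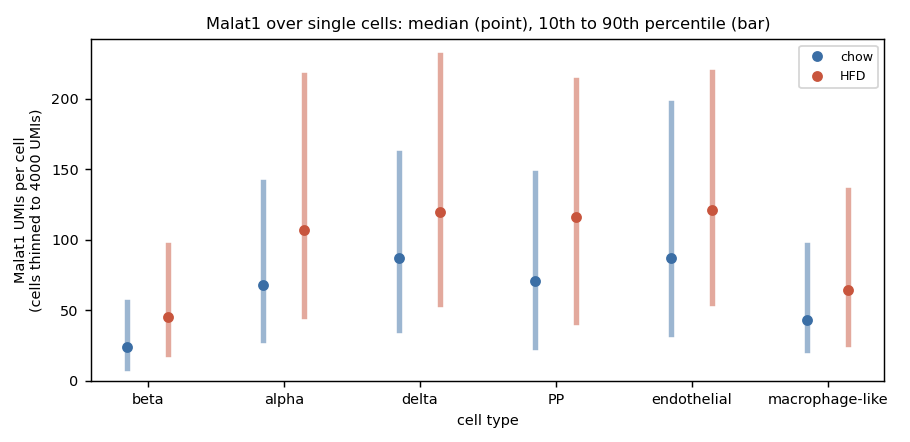
Malat1 UMIs per cell after thinning to 4000 UMIs, by cell type; points are medians over cells, bars span the 10th to the 90th percentile, blue is the chow and red the HFD library. The HFD median is higher in each of the 6 types, from 45 against 24 in beta cells to 121 against 87 in endothelial cells, and the bars overlap.

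Malat1 was lower in deeper cells. In chow beta cells split by UMIs per cell its level was 9194 CPM in the lowest quartile and 5511 CPM in the highest, and in HFD beta cells 17166 and 10164 CPM. The HFD level was above the chow level in each quartile. Kcnq1ot1 had 106 and 62.4 CPM in the lowest and highest chow quartile and 156 and 87.6 CPM in HFD, and Snhg11 26.8 and 12.8 CPM in chow and 60.9 and 27.8 CPM in HFD. By quartiles of the mitochondrial share, Malat1 ran from 6109 to 7320 CPM in chow and from 10421 to 13662 CPM in HFD beta cells, and Neat1 from 139 to 193 and from 118 to 204 CPM. Over 4348 chow and 2968 HFD thinned beta cells, the Spearman correlation of Malat1 with insulin UMIs was -0.34 and -0.44, as a description of shares that sum to a fixed total. With Kcnq1ot1 it was 0.15 and 0.19.

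**Figure D5:**
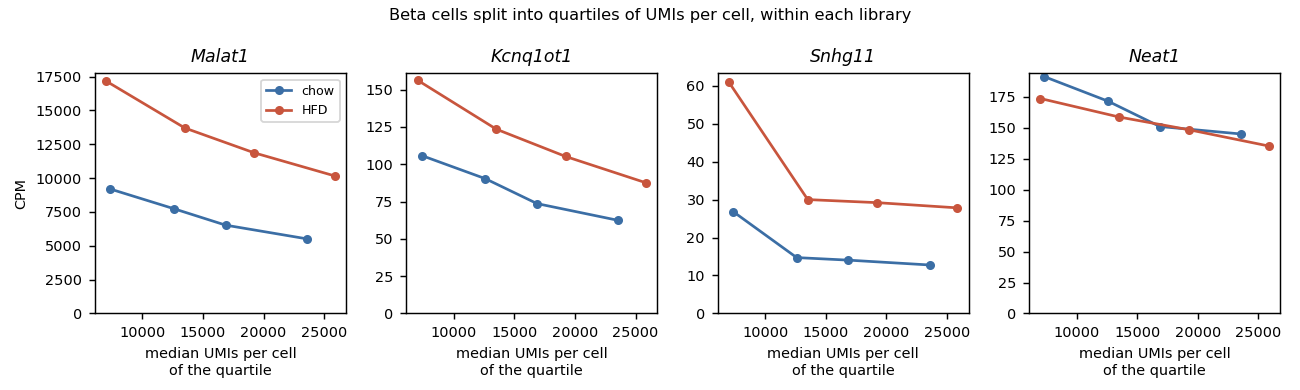
Level in CPM (linear axes from 0) of 4 RNAs in beta cells split into quartiles of UMIs per cell within each library, against the median UMIs of the quartile; blue is chow, red HFD. Malat1, Kcnq1ot1 and Snhg11 are higher in HFD in each quartile, and Neat1 is at 191 and 145 CPM in the lowest and highest chow quartile and at 174 and 135 CPM in HFD.

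Several differences moved with the mitochondrial share of the cells. Neat1 in alpha cells was at -1.58 in cells under the median share of both libraries together and at -0.05 in cells at or over it. Snhg11 in delta cells was at 1.00 and -0.30, and Snhg6 in alpha cells at -0.45 and 0.23. Kcnq1ot1 was at 1.12 and 0.39 in PP cells and at 1.63 and 0.47 in macrophage-like cells, so it missed the fold in the cells of higher share. Malat1 in endothelial cells was at 0.50 and 0.17. Malat1 kept 0.63 and 0.72 in the same split of beta cells and 0.53 and 0.69 in those of alpha cells. Genes of the heat shock and immediate early response, which dissociation can induce, also differed between the libraries: Hspa1a was at 62.4 CPM in beta cells of the chow and 5.29 CPM in those of the HFD library, and Egr1 at 106 and 180 CPM. Of 19 such genes 1 was past the fold upward and 7 downward in beta cells, with a median of -0.31. Without cells that had an Hspa1a or Hspa1b UMI, Malat1 was at 0.67 and Snhg11 at 0.93 in beta cells. In macrophage-like cells 11 of 16 of these genes were past the fold upward and 0 downward, beside 13% and 8.96% of all genes. PP cells had 7 of 18 upward and 3 downward, beside 11.6% and 7.36%. Delta cells had 5 of 18 upward and 4 downward, beside 7.4% and 4.47%. Alpha cells had 4 of 18 upward and 3 downward, beside 6.68% and 7.38%. Endothelial cells had 5 of 18 upward and 1 downward, beside 9.66% and 6.61%. Of 14 genes that mark RNA quality, most of them mitochondrial, 10 were past the fold upward in endothelial cells, beside 9.66% of all genes. The part of these lists in the values of these types was not tested.

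Other noncoding RNAs were set beside the members. Of 19 further host genes of small nucleolar RNAs 6 are in the table and the rest were not analysed here. 5 were measured in beta cells, with a median of 0.27 and none past the fold, from Snhg20 (32.3 and 37.2 CPM, 0.01) and Snhg12 (0.05) to Snhg9 (0.27), Snhg18 (0.34) and Epb41l4aos (10.7 and 15.8 CPM, 0.36). In delta cells 3 of 5 were past the fold, all higher in HFD, with a median of 0.63, where 7.4% of all genes were that high. In alpha cells 0 of 5 and in PP cells 1 of 5 were, beside 6.68% and 11.6% of all genes. Of 38 other named long noncoding RNAs 22 are in the table, and 11 were measured in beta cells, with 1 past the fold each way and a median of 0.14. Lncpint, a p53-induced RNA, was highest (6.14 and 12.9 CPM, 0.87), ahead of A330008L17Rik (0.37), Jpx (0.28) and Airn (0.20), and Trp53cor1 was lowest (3.92 and 3.01 CPM, -0.58), before Mirg (-0.21), Bvht (-0.10) and 6330403K07Rik (-0.09). Lncpint was higher in HFD also in alpha (1.22), delta (0.83) and PP cells (1.27), the other types in which it was measured.

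The proteins that work with these RNAs are given for beta cells, where 6.11% of all genes were past the fold upward and 12.1% downward. Of 22 paraspeckle proteins 0 were past the fold upward and 1 downward in beta cells, with a median of 0.03: Nudt21, a cleavage factor that sets which Neat1 form is made, was lowest (-0.53, before Taf15 at -0.26) and Zc3h6 (0.41) and Ss18l1 (0.40) highest. Of 32 speckle and splicing proteins 2 were past the fold downward, with a median of -0.03: U2af1 (56.3 and 35.9 CPM, -0.84) and Srsf3 (-0.60), both of the splicing machinery, while the splicing kinases Clk1 (0.45) and Prpf4b (0.39) were highest. The same list had a median of 0.19 in alpha cells (3 of 32 past the fold upward, 0 downward, beside 6.68% and 7.38% of all genes) and 0.17 in PP cells (5 upward, 1 downward, beside 11.6% and 7.36%). Its median was lower in delta (0.00), endothelial (-0.05) and macrophage-like cells (0.08). 12 measured genes for splicing factors known in neurons, several of which Miat is known to bind, had a median of 0.02, from Srrm4 (-0.22) and Celf6 (-0.20) to Celf4 (0.43) and Nova2 (0.59). RNA decay factors had a median of -0.05 (13 genes, 1 past the fold), from Exosc3 (-0.74) and Hnrnpc (-0.27) to Zcchc8 (0.27) and Mettl14 (0.35). Genes of nonsense-mediated decay, which degrades spliced host RNAs such as Snhg6, had a median of 0.08 (14 genes, 3 past the fold, all lower in HFD), from Magoh (-1.06) and Rbm8a (-0.75), both of the exon junction complex, to Smg8 (0.22) and Upf2 (0.48).

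Snhg6 starts like the messenger RNAs of the ribosome, as its first bases above show. Of 92 genes of that kind 89 were measured in beta cells, 1 past the fold upward and 2 downward, with a median of -0.15. Rpl7a (-0.56) and Rpl15 (-0.53) were lowest and Rps27 (0.59) and Rps29 (0.48) highest, and Snhg6 itself was at -0.05. A list of genes of the imprinted cluster around Kcnq1ot1 and of its neighbours on chromosome 7 had a median of -0.26 in beta cells. Of its 17 genes 11 were measured, 1 past the fold upward and 2 downward. The list is wider than the cluster that Kcnq1ot1 silences, as it also holds Ins2, Igf2 and Th. Tnfrsf23 (8.92 and 4.99 CPM, -1.03) and Tssc4 (-0.62) were lowest and Osbpl5 (10.1 and 19.1 CPM, 0.72) and Igf2 (-0.04) highest. Cdkn1c was at -0.26 in beta cells, at a low level (0.55 and 0.52 CPM), and at -1.09 in endothelial cells (29.2 and 13.6 CPM). Kcnq1, which was not measured in beta cells, was at -0.18 in endothelial cells. Of 6 measured neighbours of Malat1 and Neat1 on chromosome 19, 1 was past the fold, Sssca1 (-1.17), and the median was -0.09, with Map3k11 (0.11) and Ltbp3 (0.47) highest. The genes that mark RNA quality had a median of 0.00 in beta cells, from Gm26917 (-0.84) and AY036118 (-0.49) to mt-Atp8 (0.65) and mt-Nd4l (0.67).

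The promoters of Malat1 and Kcnq1ot1, the members with values above 0 in all 6 types, are shown with one motif each. That choice rests on no comparison with all genes. RefSeq promoters (250 bases before to 50 after the start, GRCm38.p6) were given for 4 of the 6 RNAs. The letters TGACG, the core that factors of the CREB and ATF family bind, were searched on both strands, as was CCAAT, the letters bound by nuclear factor Y. In all, 4 motifs were searched, and each RNA is shown with the motif that matched it most often. The shares of promoters given below take no account of this choice. Malat1 had no match of the nuclear factor Y letters, and Snhg11 and Miat had no match of either named motif. The motifs not named had no match in Malat1, Kcnq1ot1 or Snhg11 and 1 in Miat. Malat1 (chr19:5802623-5802922, minus strand) holds TGACG 3 times (capitals, in 2 cases as its reverse CGTCA), as do 1.04% of 32851 promoters with 3 or more, and 20.8% hold it at all.
Malat1 promoter: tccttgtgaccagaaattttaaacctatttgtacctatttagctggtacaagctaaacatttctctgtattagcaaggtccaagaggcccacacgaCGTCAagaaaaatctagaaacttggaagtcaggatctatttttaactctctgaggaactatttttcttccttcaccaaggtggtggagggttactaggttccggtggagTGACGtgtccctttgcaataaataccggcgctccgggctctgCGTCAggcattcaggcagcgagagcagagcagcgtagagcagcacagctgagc
Kcnq1ot1 (chr7:143296498-143296797, minus strand) holds CCAAT 3 times (capitals) and TGACG 1 time. CCAAT occurs in 37.4% of promoters and 3 or more times in 3.37%. No match says only that these letters are not in a window, and a match is a description of the sequence.
Kcnq1ot1 promoter: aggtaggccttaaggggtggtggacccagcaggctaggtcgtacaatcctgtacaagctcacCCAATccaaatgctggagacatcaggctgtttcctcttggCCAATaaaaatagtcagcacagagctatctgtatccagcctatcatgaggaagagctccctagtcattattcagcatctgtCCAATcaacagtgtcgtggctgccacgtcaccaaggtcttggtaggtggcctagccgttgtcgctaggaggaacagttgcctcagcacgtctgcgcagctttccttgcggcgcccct

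Genes whose levels ran most alike over the 12 points of 6 types and 2 libraries are named as a description, since points of a library share its depth and preparation. The measure was Pearson's r of log2(CPM + 1) among 6996 genes. Malat1 ran most like Agpat4 (0.90), Erich1 (0.89) and the immediate early gene Ier2 (0.89). Neat1 had lower values, with Stx7 (0.80), Tmcc3 (0.79) and Tmem68 (0.77). Snhg11 ran like Cpn1, Gpc4 and the neural adhesion gene Ncam1 (each 0.98), which, like it, were low or at 0 in some types. Kcnq1ot1 ran like Rabgap1 (0.96), Map3k2 (0.95) and Srf (0.95), and Snhg6 like Frmd8, Ddx27 and Hccs (each 0.98). Miat, with counts of 0 to 4 in each sum, has no pattern to compare.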

How the data were processed

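The authors deposited raw counts of UMIs, whole numbers with no normalization, one matrix per library. Libraries were made with 10x 3' v2 chemistry, per the labels' protocols. The submitters' processing notes name Cell Ranger 2.1.0. The sources used here do not give the genome build, the annotation or how cells were called. The members and all gene lists were chosen with earlier results of these data known.

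Barcodes with under 500 genes or over 10% mitochondrial UMIs were removed (122 chow, 145 HFD). Scrublet (scanpy 1.11.5) marked 0.0470% and 0.0228% as doublets, so its threshold had not worked. Scores strictly above the cut for the top 5% were removed instead. Barcodes with a score at the cut stayed, so 278 and 194 were removed (4.35% and 4.42%). Counts were summed per type and library, with 0.5 counts added for log2 ratios. Sums have exact Poisson and shares exact Clopper-Pearson intervals, at 95%. A type entered comparisons if each library had 50 of its cells. The ratio was tested on simulated data. Cells were thinned to 4000 UMIs where stated, which left out 24 chow beta and 15 chow alpha cells and no HFD beta or alpha cell. Of each list the 2 highest and 2 lowest ratios in beta cells are named (4 for noncoding RNAs), and per member the 3 genes of highest r. 1 gene that this rule names is not reported here. Alternatives changed totals, filters, typing, depth and scaling.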

Additional observations from a re-analysis of the deposited data

Results flagged for a closer look

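For 2 RNAs the difference between the HFD and chow libraries had opposite signs in a pair of cell types, with both counting intervals clear of 0. Neat1 was at 0.36 in macrophage-like and -0.90 in alpha cells, a gap of 1.27 on the log2 scale. Snhg11 was at 0.90 in alpha and -0.75 in PP cells, a gap of 1.65. With 1 library per diet neither gap was tested, and each pair was picked as the widest of the RNA. Neat1 in alpha cells was at -0.05 at or over the median mitochondrial share. Snhg11 in PP cells was at -0.39 in the deeper cells, and 10 cells held 84.6% of its 39 HFD counts. The intervals cover counting error only.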

How the results depend on the processing

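No paired analysis was possible because each diet has 1 library. The counts of RNAs past the fold below stand without the share of all genes past it in the same setting. They describe how the count moved and are not a result about the RNAs. The count of RNAs past the fold stayed within 1.5 times in beta cells (2) and alpha cells (3) under every alternative run. In delta cells, 1 in the main setting, it was 0 with cells meeting more than 1 type rule left out, at most 5% mitochondrial UMIs, the endothelial rule first, TMM factors or the mean of per-cell shares, and 2 with no minimum count or without cells of at least 1% Ppy. In PP cells, 5 in the main setting, it was 2 in thinned cells. In endothelial cells, 0 in the main setting, it was 1 in thinned cells and 1 with no minimum count. In macrophage-like cells, 1 in the main setting, it was 3 with stricter type thresholds, with no median subtracted, without the 10 richest cells or without Hspa1a or Hspa1b cells, and 2 in thinned cells, with no minimum count, with 5 counts added or with mean shares. Alternatives chosen after seeing the data were the splits at the median depth and the median mitochondrial share, and cells without Cd74, Ccl5 and H2-Aa. Under the median depth the count was 3 in delta, 3 in PP and 2 in macrophage-like cells, at or over it 3 in PP, 1 in endothelial and 2 in macrophage-like cells. Under the median mitochondrial share it was 2 in endothelial and 0 in macrophage-like cells, and at or over it 3 in PP cells. The 0 does not mean that no ratio passed the fold in those macrophage-like cells. The ratio of Kcnq1ot1 was past it there, as in 19 of 20 alternatives for this type. Whether Kcnq1ot1 met the minimum count in that split is not given here. Malat1 and Kcnq1ot1 kept their sign in all 6 types under every alternative run. Malat1 ranged from 0.63 to 0.86 in beta cells. Neat1 in alpha cells ranged from -1.58 to -0.05. Neat1 in delta cells was 0.39 and Snhg6 -0.24 without cells of at least 1% Ppy, against -0.19 and 0.33. The cause of these shifts was not tested. Depth limits Miat in all types and Snhg11 outside endocrine cells.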
